A study of Mus musculus with 7 samples.

Results

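Desmosomes hold epithelial cells together, and 10 genes of this junction were examined in the dental epithelium of the mouse incisor, with and without deletion of Nogo-A in the epithelium. The genes were taken by name as components of the junction. They are Dsp, Jup, Pkp1, Pkp2, Pkp3, Dsg2, Dsg3, Dsc2, Dsc3 and Perp, 10 of 25700 gene IDs in the count files, and all 10 were among the 14791 genes with enough counts to be tested. None of them rose or fell in the Nogo-A-deleted epithelium after adjustment over all genes tested. All 10 estimates lay slightly above 0, between 0.03 and 0.41 on the log2 scale, but this direction depended on the scaling: 3 of the 10 stayed above 0 when libraries were scaled to epithelium markers.

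RNA was sequenced from the epithelium of lower incisors taken from 7 pups at birth (PN0). The 4 pups called K14;Nogo-A here carry K14cre cre/+ and Nogo-A fl/fl, and the 3 wild-type pups are labelled wt for genotype. K14-cre is driven by a keratin 14 promoter and so acts in epithelial cells, where it removes the exon that Nogo-A has and the other products of Rtn4 lack. Dispase, a protease, was used to free the epithelium from the mesenchyme, only its posterior part was analysed, and the tissue of both lower incisors of a pup made 1 library. One more wild-type pup described for the study was not analysed here. The replicates are therefore pups, and the p-values measure the spread between them.

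A desmosome joins the keratin filaments of neighbouring cells. Its cadherins, the desmogleins and desmocollins, bind each other in the gap between the cells, plakoglobin and the plakophilins bind the tails of the cadherins inside the cell, and desmoplakin ties this plaque to keratin. In teeth the junction links the ameloblasts, which secrete enamel, with the stratum intermedium beside them, and Perp, a membrane protein of the desmosome, is known in mice for its part in that attachment and in normal enamel.

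Library totals ran from 20929207 to 29728532 counts for K14;Nogo-A and from 21021158 to 41219439 for wild-type, and the 10 genes took 0.316% of all counts. All 22 epithelium markers had counts in every library. Their summed level was 8933 to 10558 CPM (counts scaled to the library size, with TMM factors for library composition) in K14;Nogo-A pups against 6603 to 10429 in wild-type. Krt5 and Krt14 were the most abundant of them, with means of 3406 and 2448 CPM in K14;Nogo-A pups against 2762 and 1983 in wild-type. Mesenchyme markers summed to more than the epithelium markers in every library, at 13972 to 37787 CPM in K14;Nogo-A pups against 31139 to 47330 in wild-type. Type I and type III collagen genes were among them. The mean log2 CPM of the 23 mesenchyme markers was 7.36 to 7.57 in K14;Nogo-A pups against 7.93 to 8.14 in wild-type, so the genotypes did not overlap (difference -0.56, exact permutation test, two-sided, p = 0.0286, the smallest that 4 against 3 libraries allow, adjusted p = 0.171 over 6 marker lists). Rtn4 as a whole had 327 ± 21.3 CPM (SD, n = 4) in K14;Nogo-A pups against 301 ± 39.1 (SD, n = 3) in wild-type, and a count over the whole gene does not check the deletion of 1 exon.

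Levels were first compared between the genes per unit of transcript length, as TPM, counts scaled to the exon length of the gene and to the library size. Perp was the most abundant, with a mean of 1766 TPM over the 7 libraries, more than 99.7% of the genes tested. Dsc3 followed at 261 TPM and Pkp1 at 241, then Dsp at 192, Jup at 108, Pkp3 at 95.5, Dsg2 at 82.6 and Dsc2 at 57.6. Dsg3 at 4.80 TPM and Pkp2 at 1.96 were far below the other 8 genes. The order of neighbours held in all 7 libraries except at 3 places. Dsc3 lay above Pkp1 in 4 of 7 libraries, Jup above Pkp3 in 6 and Pkp3 above Dsg2 in 6. The differences between these neighbours were not tested.

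Dsg2 and Dsc3 held most of the desmoglein and desmocollin RNA of these libraries, which also contained mesenchyme RNA. Dsg2, the desmoglein of simple epithelia and heart, made up 61.0% to 67.8% of the desmoglein TPM in K14;Nogo-A pups against 65.9% to 68.7% in wild-type. Dsg3, the desmoglein of the basal epidermis and the oral mucosa, had only 3.63% to 4.08% in K14;Nogo-A pups against 3.46% to 3.96% in wild-type. The remainder was nearly all Dsg1a and Dsg1b, whose counts are uncertain because 24.6% and 32.8% of their 100-base transcript windows also occur in another gene of the family. No such window was shared for any of the 10 genes, Dsg2 and Dsg3 included. Among the desmocollins, Dsc3 held 79.6% to 83.2% in K14;Nogo-A pups against 81.8% to 82.5% in wild-type, and nearly all of the rest was Dsc2. Dsc1, a desmocollin of the upper epidermis, did not exceed 0.0955% in any library.

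**Figure D1:**
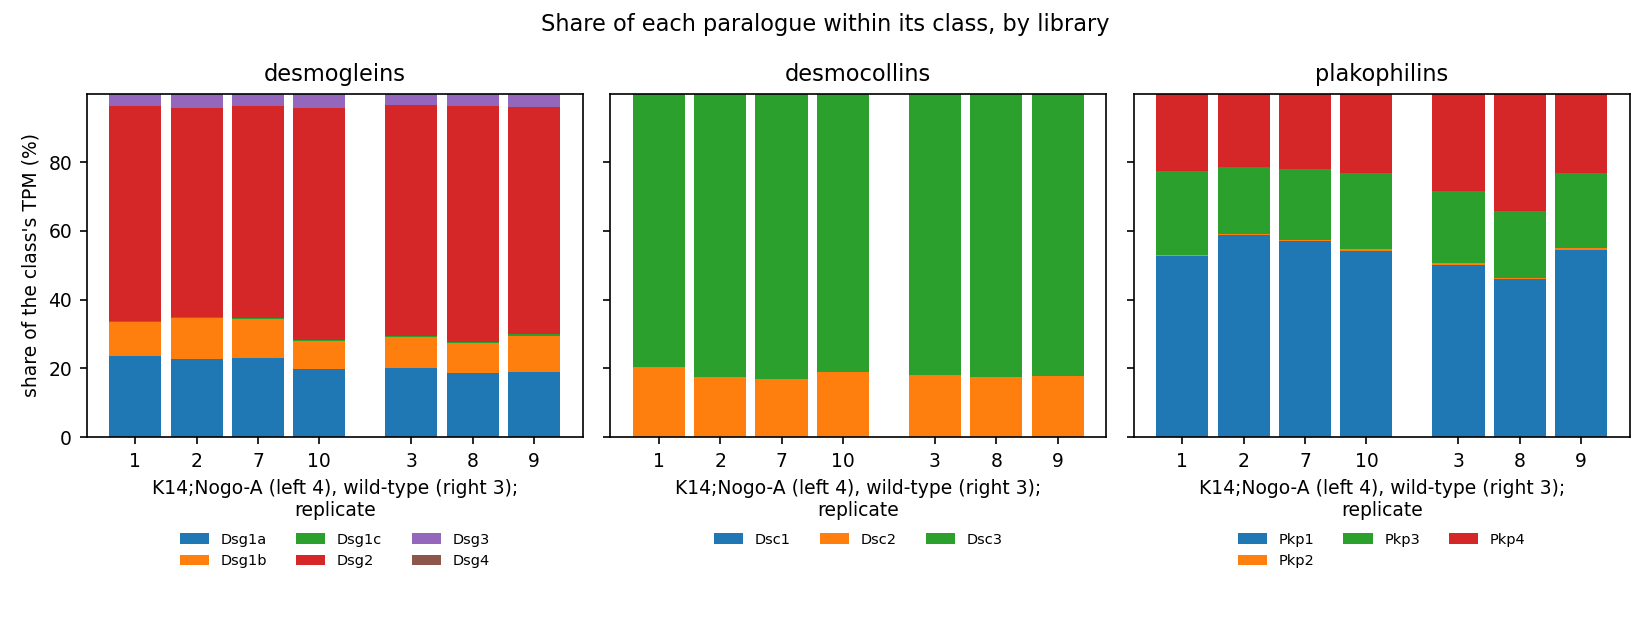
Share of the summed TPM of desmogleins, desmocollins and plakophilins held by each gene, in percent, as a stacked bar per library, with the K14;Nogo-A libraries left of the wild-type libraries. Dsg2, Dsc3 and Pkp1 had the highest share of their class in every library of both genotypes.

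These cadherin genes stand in 1 cluster on chromosome 18, with the desmocollins on the minus strand and the desmogleins on the plus strand, in the order Dsc3, Dsc2, Dsc1, Dsg1c, Dsg1a, Dsg1b, Dsg4, Dsg3 and Dsg2. The most abundant genes were near the outer ends, Dsc3 and Dsc2 at one end and Dsg2 at the other. The 3 genes with the fewest counts lay between them. Dsg4 had 3 counts over all 7 libraries, Dsc1 57 and Dsg1c 107. Level did not follow position throughout, since Dsg3, the neighbour of Dsg2, had a mean of 4.80 TPM. That was below Dsg1a at 26.5 and Dsg1b at 12.6, which lie further inside.

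**Figure D2:**
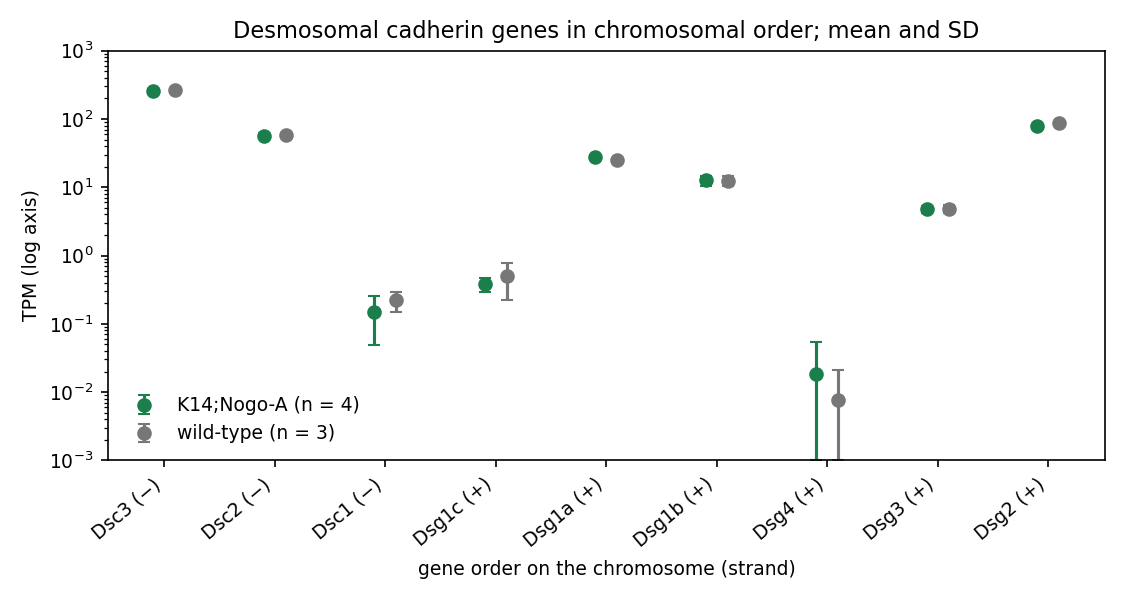
Mean TPM of the 9 desmosomal cadherin genes on a log axis, in their order along the chromosome, with bars of 1 SD over the libraries of a genotype, K14;Nogo-A left of wild-type. Bars that reach 0 run to the lower edge of the axis. The levels of Dsc3, Dsc2 and Dsg2 are over 50 TPM and those of Dsc1, Dsg1c and Dsg4 are under 1 TPM.

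Dsc2, a desmocollin of many epithelia, lies on chromosome 18 of GRCm38 from 20030633 to 20059554 (ENSMUSG00000024331). It had 96.5, 108, 95.5 and 114 CPM in K14;Nogo-A pups against 93.7, 85.1 and 93.3 CPM in wild-type. The lowest K14;Nogo-A library, at 95.5 CPM, was just above the highest wild-type library, at 93.7 CPM. The log2 fold change was 0.19 (SE 0.09, 95% interval -0.01 to 0.40, adjusted p = 0.421 in the edgeR quasi-likelihood fit). Dsc2 was the only one of the 10 genes without overlap, where 5.43% of all genes tested had every K14;Nogo-A library above every wild-type library and 6.09% had every one below. A count of 1 in 10 is near that background and is not a result about these genes.

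Dsc3 (chromosome 18, 19960930 to 20002351, ENSMUSG00000059898) had 386, 528, 485 and 499 CPM in K14;Nogo-A pups against 433, 413 and 442 in wild-type. One K14;Nogo-A library was below all wild-type libraries and the other 3 were above them. The log2 fold change was 0.14 (SE 0.11, adjusted p = 0.622). Dsg2 (chromosome 18, 20558074 to 20604521, ENSMUSG00000044393) had 189, 230, 214 and 254 CPM in K14;Nogo-A pups against 213, 204 and 236 CPM in wild-type, with full overlap, and a log2 fold change of 0.03 (SE 0.11, 95% interval -0.21 to 0.27, adjusted p = 0.937). The 330 bases that Dsg2 exons share with the antisense gene Gm16090 could hold counts of either if strand was not used in counting, and Gm16090 itself was not analysed here. For Dsg3 (chromosome 18, 20510274 to 20547459, ENSMUSG00000056632) the values were 9.28, 12.9, 10.8 and 12.9 CPM in K14;Nogo-A pups against 9.26, 8.79 and 12.0 CPM in wild-type (log2 fold change 0.21, SE 0.17, adjusted p = 0.627).

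A ratio of 2 of these genes within a library does not depend on how libraries are scaled to each other. The log2 ratio of Dsg3 over Dsg2 counts was -4.28 ± 0.09 (SD, n = 4) in K14;Nogo-A pups against -4.45 ± 0.13 (SD, n = 3) in wild-type, a difference of 0.18 (exact permutation test, two-sided, p = 0.0857, adjusted p = 0.343 over 4 ratios). That of Dsc3 over Dsc2 was 2.00, 2.29, 2.35 and 2.13 in K14;Nogo-A pups against 2.21, 2.28 and 2.25 in wild-type, a difference of -0.05 (exact permutation p = 0.629, adjusted p = 0.743). For the plakophilins, Pkp1 over Pkp3 was 1.84 ± 0.22 in K14;Nogo-A pups against 1.75 ± 0.04 in wild-type, a difference of 0.09 (exact permutation p = 0.486, adjusted p = 0.743). Pkp2 over Pkp3 was -5.11 ± 0.33 in K14;Nogo-A pups against -4.96 ± 0.11 in wild-type (exact permutation p = 0.743). None of the 4 ratios had an adjusted p under 0.05. The smallest p that 4 against 3 libraries allow in this permutation test is 0.0286. No single ratio could therefore reach an adjusted p under 0.05 over 4 ratios, so the test cannot show that the ratios were equal. The ratio of Dsg3 over Dsg2 differed most against its spread, and its genotypes overlapped, with K14;Nogo-A at -4.35 to -4.15 and wild-type at -4.53 to -4.30.

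The plaque proteins had their highest estimate in Pkp1. Plakophilin 1, which clusters desmosomal cadherins and recruits desmoplakin in stratified epithelia, lies on chromosome 1 from 135871395 to 135919207 (ENSMUSG00000026413). Pkp1 had 351, 503, 473 and 440 CPM in K14;Nogo-A pups against 315, 267 and 412 CPM in wild-type. The overlap came from the first K14;Nogo-A library, which was below the wild-type library of 412 CPM. The log2 fold change was 0.41 (SE 0.16), or 1.33-fold with a 95% interval of 1.05 to 1.70 (adjusted p = 0.314, unadjusted p = 0.0245 in edgeR's quasi-likelihood test). Pkp1 held 52.6% to 58.8% of the plakophilin TPM in K14;Nogo-A pups against 46.0% to 54.5% in wild-type. Most of the rest was Pkp3 and Pkp4, the plakophilin relative that is also found at adherens junctions, which held 21.5% to 23.0% in K14;Nogo-A pups against 23.3% to 34.2% in wild-type.

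Pkp3, the plakophilin found in nearly all desmosomes of simple and stratified epithelia, lies on chromosome 7 from 141078218 to 141090510 (ENSMUSG00000054065). Its values were 118.3, 118.8, 121.9 and 129.5 CPM in K14;Nogo-A pups, against 95.3, 81.2 and 118.6 CPM in wild-type. The highest wild-type library lay between the 2 lowest K14;Nogo-A libraries, and the spread within K14;Nogo-A was the smallest of the 10 genes, a coefficient of variation of 4.22%. The log2 fold change was 0.31 (SE 0.12), or 1.24-fold with a 95% interval of 1.04 to 1.49 (adjusted p = 0.303, unadjusted p = 0.0214). Pkp2, the plakophilin of heart and simple epithelia, lies on chromosome 16 from 16213318 to 16272712 (ENSMUSG00000041957) and had 2.45, 3.85, 3.77 and 4.42 CPM in K14;Nogo-A pups against 3.03, 2.83 and 3.55 CPM in wild-type. With 53 to 127 counts per library it was the least precise of the 10 (log2 fold change 0.22, SE 0.23, adjusted p = 0.713).

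Plakoglobin, the product of Jup, is shared by desmosomes and adherens junctions. Jup (chromosome 11, 100368958 to 100397763, ENSMUSG00000001552) had 205, 246, 241 and 255 CPM in K14;Nogo-A pups against 206, 165 and 259 CPM in wild-type. The highest and the lowest values were both wild-type, and the log2 fold change was 0.17 (SE 0.14, 95% interval -0.14 to 0.48, adjusted p = 0.632).

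Dsp encodes desmoplakin, the link to keratin, and lies on chromosome 13 from 38151294 to 38198577 (ENSMUSG00000054889). Its level was 456, 716, 611 and 681 CPM in K14;Nogo-A pups against 547, 493 and 706 CPM in wild-type. The lowest and the highest library were both K14;Nogo-A, and the log2 fold change was 0.08 (SE 0.17, 95% interval -0.28 to 0.45, adjusted p = 0.867). Gm10129, a gene on the other strand, overlaps 499 exon bases of Dsp and had 36 counts in all against 119322 for Dsp.

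The promoters of Dsp and Jup, 2 of the 10 genes, were searched for CACCTG, an E-box bound by Zeb1 and Zeb2. These 2 genes were not picked for that motif. Zeb1 and Zeb2 are repressors of epithelial genes, and their values are given with the regulators. No promoter of the other desmosome genes was examined. The sequences are those of RefSeq for GRCm38.p6, 250 bases before and 20 bases after the RefSeq start of the gene, written 5′ to 3′ on the strand of the gene. For Jup the start in RefSeq is upstream of the GENCODE start used for the position above, so that all bases shown lie before that position. Capitals mark CACCTG and GGGCGG, the GC box bound by Sp proteins, found on either strand, so that they also appear as CAGGTG and CCGCCC. The Dsp promoter, at chr13:38151044-38151313 on the plus strand, held 1 CACCTG, 3 bases past the start of the gene, and 4 GGGCGG. The Jup promoter, at chr11:100397771-100398040 on the minus strand, held 0 CACCTG and 2 GGGCGG. Neither motif overlapped the other. Of 32851 promoters of this length, 18.4% held CACCTG and 34.1% held GGGCGG. A match is a run of letters and does not show binding, and the log2 fold changes of Dsp and Jup were 0.08 and 0.17 as given above.
Dsp: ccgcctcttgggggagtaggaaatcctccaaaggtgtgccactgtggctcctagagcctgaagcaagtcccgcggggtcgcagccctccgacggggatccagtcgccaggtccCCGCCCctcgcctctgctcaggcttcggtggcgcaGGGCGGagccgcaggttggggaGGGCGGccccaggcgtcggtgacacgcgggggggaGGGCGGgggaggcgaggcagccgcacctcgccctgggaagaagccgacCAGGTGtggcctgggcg
Jup: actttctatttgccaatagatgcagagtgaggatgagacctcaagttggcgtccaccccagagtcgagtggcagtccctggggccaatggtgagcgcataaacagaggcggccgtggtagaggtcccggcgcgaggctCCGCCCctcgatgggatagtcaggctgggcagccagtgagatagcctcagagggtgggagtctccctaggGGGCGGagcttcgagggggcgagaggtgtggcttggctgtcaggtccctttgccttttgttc

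Perp had the largest difference in CPM. It lies on chromosome 10 from 18845020 to 18857073 (ENSMUSG00000019851) and had 1135, 1285, 1289 and 1315 CPM in K14;Nogo-A pups against 953, 699 and 1185 CPM in wild-type. As for Pkp1 and Pkp3, only the highest wild-type library reached the range of K14;Nogo-A, where it was above the lowest library. The log2 fold change was 0.41 (SE 0.16), or 1.33-fold with a 95% interval of 1.05 to 1.68 (adjusted p = 0.304, unadjusted p = 0.0221).

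**Figure D3:**
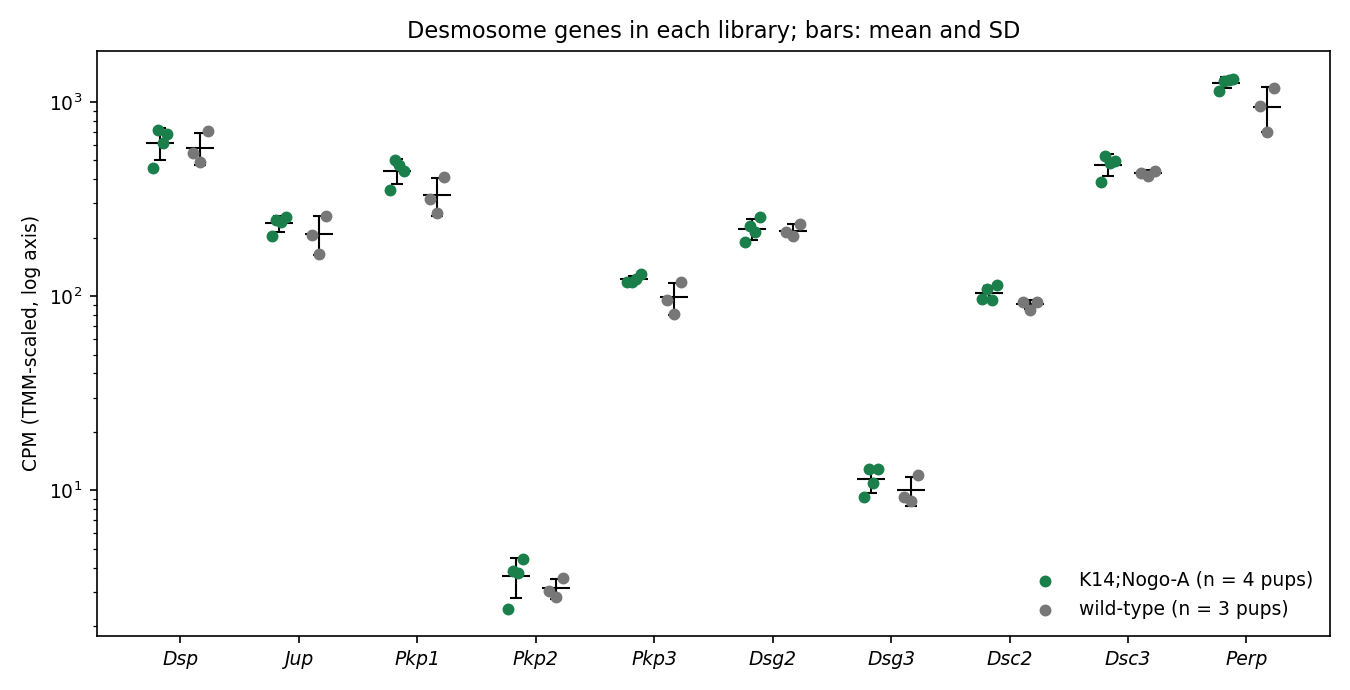
CPM of each of the 10 desmosome genes in each library, K14;Nogo-A left of wild-type, with the mean and 1 SD per genotype. The groups do not overlap for Dsc2, and overlap for the other 9 genes.

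Over the 10 genes, 0 had an adjusted p under 0.05 in edgeR's quasi-likelihood test, where 0% of the genes tested passed in the higher direction and 0.0338% in the lower. The likelihood-ratio test of edgeR called 0 of the 10, with 0.392% of the genes tested called higher and 0.73% lower. DESeq2 called 0 of the 10, with 0.892% called higher and 1.05% lower, and limma-voom 0 of the 10, with 0% and 0.027%. None met the thresholds of the study, namely an unadjusted p no higher than 0.05 and a log2 fold change of 0.5 or more in either direction, which 2.02% of the genes tested met in the higher and 2.74% in the lower direction. At an unadjusted p of 0.05 or less alone, 3 of 10 were higher in K14;Nogo-A, namely Pkp1, Pkp3 and Perp, where 6.25% of all genes tested were, and 0 were lower, where 6.66% were. The 10 log2 fold changes were all above 0, where 48.5% of all genes tested were and 51.5% were at 0 or below, and their median was 0.20 against -0.01 over all genes tested. In a fit that took the mesenchyme marker level as covariate, 0 of the 10 were above 0, the median was -0.60, and Dsp at -1.17 and Pkp1 at -0.96 met the thresholds of the study as lower, with no adjusted p under 0.05. That fit extrapolates, because the genotypes do not overlap in the covariate. The 10 genes are not 10 separate results, since they were measured in the same 7 libraries and shared their lowest libraries.

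**Figure D4:**
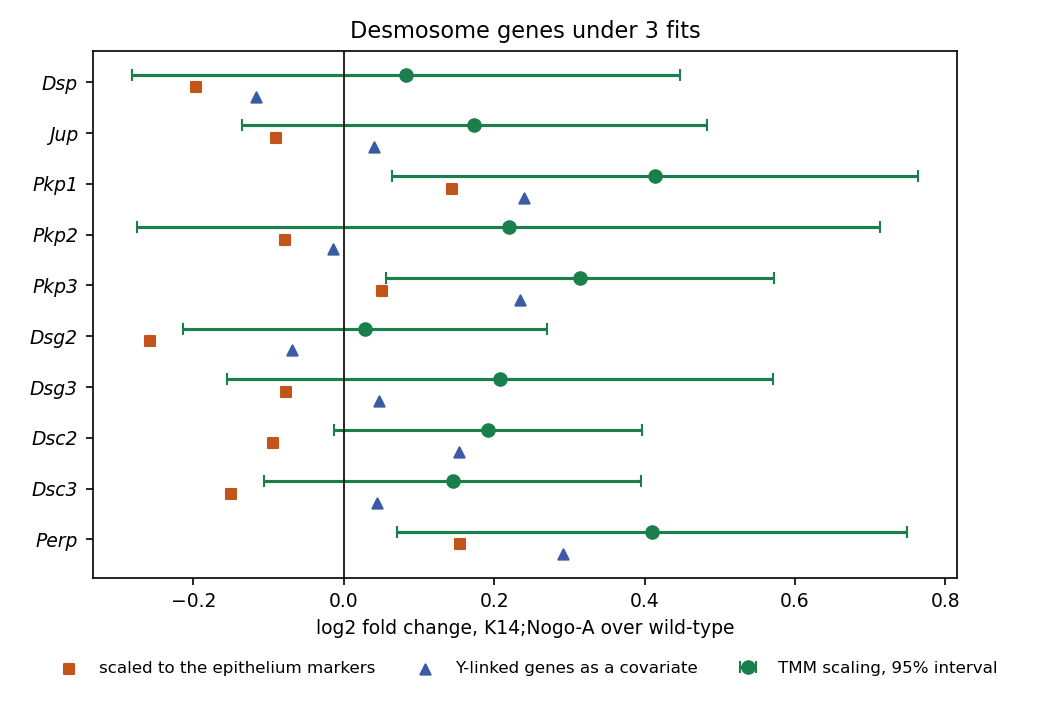
Log2 fold change of K14;Nogo-A over wild-type for the 10 desmosome genes, as circles with 95% intervals for TMM scaling, squares for scaling to the epithelium markers and triangles for a fit with the level of Y-linked genes as covariate. All 10 circles lie between 0.03 and 0.41, the intervals of Pkp1, Pkp3 and Perp do not include 0, and 7 of the 10 squares lie below 0.

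Single libraries set part of these values. Wild-type replicate 8 was the lowest library for 6 of the 10 genes and among the lowest 2 for all 10, and K14;Nogo-A replicate 1 was the lowest for the other 4. The mean log2 CPM of the 10 genes was 6.93, 7.29, 7.19 and 7.32 for K14;Nogo-A (replicates 1, 2, 7 and 10) against 6.95, 6.76 and 7.19 for wild-type (replicates 3, 8 and 9). Without wild-type replicate 8 or without wild-type replicate 3, 0 of the 10 genes had an unadjusted p of 0.05 or less. Without K14;Nogo-A replicate 10 only Pkp1 did, and without replicate 2 or without replicate 7 of K14;Nogo-A only Pkp3 and Perp did. Without K14;Nogo-A replicate 1 there were 5, with Dsc2 and Dsc3 added, and Pkp1 reached 0.51 on the log2 scale and so met the thresholds of the study. Without wild-type replicate 9 there were 4, with Jup added, and Pkp1 at 0.61 and Perp at 0.62 met those thresholds. No library left out gave any of the 10 an adjusted p under 0.05.

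The epithelium markers were set beside the desmosome genes. The mean log2 CPM of the 22 epithelium markers was 6.52 to 6.78 in K14;Nogo-A pups against 6.17 to 6.60 in wild-type, a difference of 0.28 (exact permutation test, two-sided, p = 0.0857, adjusted p = 0.229 over 6 lists), and their median log2 fold change was 0.30, with 21 of 22 above 0. Wild-type replicate 8 had the lowest level of these markers, as it had for the desmosome genes. Scaled to the epithelium markers in place of all genes, 3 of the 10 desmosome genes stayed above 0, Pkp1 at 0.14, Pkp3 at 0.05 and Perp at 0.15, and the other 7 lay between -0.26 and -0.08. The median over the 10 was then -0.08, and that over all genes tested was -0.30. In RNA of a whole tissue, more epithelial cells and more RNA of these genes per cell in K14;Nogo-A pups cannot be told apart.

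Markers of other cell types were looked at in the same way. The mean log2 CPM of oral and skin keratinocyte markers was 0.49 to 1.09 in K14;Nogo-A pups against 0.50 to 0.70 in wild-type, a difference of 0.25 (exact permutation p = 0.2). Ivl, which encodes involucrin and is 1 of the 17 genes of this list, had 0 counts in all 7 libraries. It was the only gene of the 17 listed without any count, and 5 of the 17 lacked counts in some library. Lgals7 had a mean of 122 TPM over the 7 libraries and Sbsn 6.38 TPM, and both were counted in every library. Of the 12 genes that could be tested, 11 had a log2 fold change above 0. Ameloblast markers were 7.73 to 9.59 in K14;Nogo-A pups against 7.29 to 7.97 in wild-type, a difference of 1.16 (exact permutation p = 0.114), and all 7 of them had a log2 fold change above 0. The part of these cells in the desmosome values was not tested. Muscle markers were -1.11 to 0.91 in K14;Nogo-A pups against -0.02 to 0.58 in wild-type, and endothelium markers 3.61 to 4.25 in K14;Nogo-A pups against 4.18 to 4.22 in wild-type. In both of these lists the genotypes overlapped. The difference was 0.06 for muscle markers (exact permutation p = 0.971) and -0.29 for endothelium markers (exact permutation p = 0.257). Of 11 endothelium genes tested, 9 had a log2 fold change of 0 or below, where 51.5% of all genes tested did. Of these, 4 met the thresholds of the study as lower, where 2.74% of all genes tested did.

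**Figure D5:**
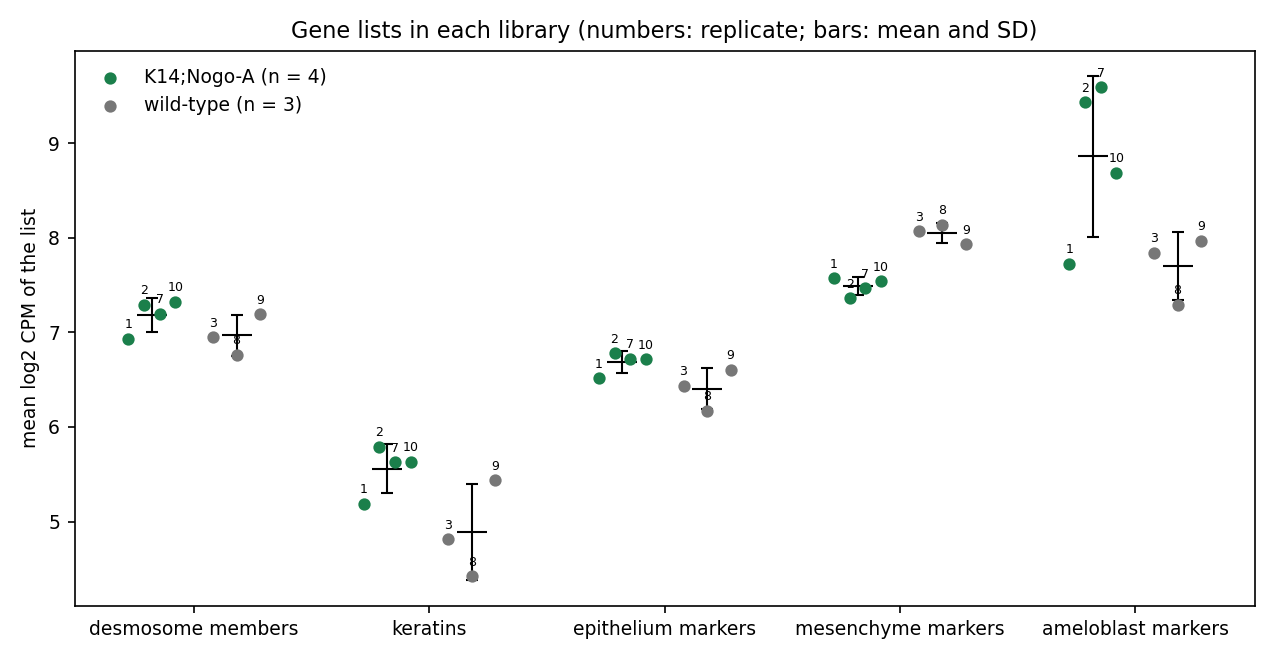
Mean log2 CPM of the desmosome genes, the keratins and the epithelium, mesenchyme and ameloblast markers in each library, numbered by replicate, with the mean and 1 SD per genotype, K14;Nogo-A left of wild-type. The mesenchyme markers do not overlap between the genotypes, and the desmosome genes do.

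The sex of the pups, read from Y-linked genes, was not balanced between the genotypes. Counts of Uty, Kdm5d, Eif2s3y and Ddx3y were above background in 1 of 4 K14;Nogo-A libraries, replicate 1, and in 2 of 3 wild-type libraries, replicates 3 and 8, which were also the 3 libraries with the lowest mean of the desmosome genes. With the level of these genes as a covariate, 7 of the 10 log2 fold changes were above 0, and the median was 0.04. Pkp1 was then at 0.24, Pkp3 at 0.23 and Perp at 0.29, each still with an unadjusted p of 0.05 or less, and Jup was at 0.040, Dsg3 at 0.046 and Dsc3 at 0.044. Pkp1, Pkp3, Dsc2 and Perp had K14;Nogo-A above wild-type both among the 3 libraries with Y-linked counts and among the 4 without. Their differences in mean log2 CPM with and without Y-linked counts were 0.27 and 0.19 for Pkp1, 0.43 and 0.06 for Pkp3, 0.11 and 0.18 for Dsc2, and 0.48 and 0.13 for Perp. This split was chosen after the data were seen, and each set holds a single library of one genotype, so it gives no test.

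Other proteins of the desmosome and of the cornified envelope that attaches to it were looked at next. Of 8 further genes that could be tested, 5 had a log2 fold change above 0, the median was 0.16, and none had an adjusted p under 0.05. Dsg1a, a desmoglein of the upper layers of stratified epithelia, had 53.5 ± 4.39 CPM (SD, n = 4) in K14;Nogo-A pups against 42.8 ± 4.38 (SD, n = 3) in wild-type, with every K14;Nogo-A library above every wild-type library (log2 fold change 0.32, adjusted p = 0.268, its counts shared with paralogs as stated above). The plakin genes Evpl and Ppl, for envoplakin and periplakin, had log2 fold changes of 0.30 and 0.34.

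Keratins, the filaments that desmoplakin holds, had log2 fold changes between 0.06 and 1.76. All 12 that could be tested were above 0, where 48.5% of all genes tested were, with a median of 0.53. The difference from the desmosome genes was not tested. Of the 12, 6 met the thresholds of the study, though none had an adjusted p under 0.05. Krt17 had 999 ± 162 CPM (SD, n = 4) in K14;Nogo-A pups against 692 ± 180 (SD, n = 3) in wild-type (log2 fold change 0.53, adjusted p = 0.278). Krt75 was 0.49 (adjusted p = 0.219), with no overlap of the genotypes, and Krt6a was 0.63 (adjusted p = 0.286). The keratin pair of basal epithelial cells, Krt5 and Krt14, was at 0.30 for each, and the pair of simple epithelia, Krt8 and Krt18, at 0.07 and 0.06.

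In the adherens junction, the other cadherin junction of these cells, estimates ran in both directions. Of 12 genes tested, 6 were above and 6 below 0, and the median was 0.01. Nectin4, a nectin of epithelial cells, was at 0.48 (adjusted p = 0.264), Nectin3 at 0.31 (adjusted p = 0.318) and Nectin1 at 0.17. Ctnna1, which encodes alpha-catenin and links cadherins to actin, was at -0.23 (adjusted p = 0.301), with every K14;Nogo-A library below every wild-type library.

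Among 16 genes that regulate desmosomes or epithelial adhesion, 9 were above and 7 below 0, with a median of 0.04. Zeb2, a transcription factor that represses epithelial junction genes, had 24.6, 24.8, 25.7 and 18.1 CPM in K14;Nogo-A pups against 39.1, 45.3 and 33.8 CPM in wild-type. Every K14;Nogo-A library was below every wild-type library, with a log2 fold change of -0.76 (SE 0.14, adjusted p = 0.147). Zeb1, its relative, was at -0.49 (adjusted p = 0.229), also without overlap. Both are among the mesenchyme markers, all 23 of which had a log2 fold change below 0, and the part of mesenchymal RNA in the Zeb1 and Zeb2 values was not tested. Prkca, the kinase PKC alpha, which weakens desmosomal adhesion, was at -0.37 (adjusted p = 0.218), and Grhl3, a transcription factor of epithelial barrier genes, at 0.40 (adjusted p = 0.365).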

How the data were processed

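Polyadenylated RNA of 7 libraries, 1 per pup, was analysed. The authors deposited unnormalized counts for each Ensembl gene, made with bcl2fastq 2.19, STAR 2.7.1 on GRCm38 and featureCounts. For adapter removal the submitters' processing notes name Trimmomatic, and the methods of the study fastp. A stranded TruSeq kit is named in the labels but TruSeq RNA Sample Prep Kit v2 in the methods, and whether counting used strand is not given there. The counts were checked to be whole numbers. Between replicates of a genotype, chi-square divided by its degrees of freedom was 16.6 or more, so none was taken as a repeat of another.

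Gene symbols and coordinates came from GENCODE M21 for 25664 of 25700 IDs. The other 36 IDs held 0.0348% of the counts. Genes that reached 10 counts in 50% or more of one genotype's libraries were tested with edgeR 4.0.16 in R 4.3.3 (TMM, robust quasi-likelihood test, no covariates, all 7 libraries), with Benjamini-Hochberg adjustment over all genes tested, and the common biological coefficient of variation was 15.2%. A gene was said to rise or fall at an adjusted p under 0.05. The limit of 0.5 in the thresholds of the study is called a fold change in one place and a log2 ratio in another, and was taken as log2. CPM used TMM library sizes, log2 CPM a prior count of 2, and TPM the summed exon length of each gene. Exact two-sided permutation tests used all 35 ways to divide 7 libraries into 4 and 3. The tests were also tried on simulated data.

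The desmosome genes and the other lists were chosen with earlier results of these data known, so the p-values given for the marker lists are descriptive. The genes named are the 10 desmosome genes, Rtn4, up to 4 genes per other list with the smallest p, and genes that define a list. Krt5, Krt8, Krt14, Krt16, Krt18, Krt19 and Lgals7 were added to these. Sequences were read from RefSeq tables. Alternatives were RLE and upper-quartile factors, scaling to the epithelium markers, DESeq2 1.42.0, the likelihood-ratio test of edgeR, limma-voom (limma 3.58.1), 2 other filters on low counts, 2 other thresholds, a prior count of 0.5, thinned counts, mesenchyme markers or Y-linked genes as a covariate, and each library left out in turn.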

Additional observations from a re-analysis of the deposited data

Results flagged for a closer look

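Among 37 results looked at, 3 had 1 library of K14;Nogo-A far from the other 3, and chance gives about 1 in 20. For Perp, replicate 1 was low at 1135 CPM against 1285 to 1315 in the other K14;Nogo-A libraries, a gap of 0.838 of the range of the group. For Zeb2, replicate 10 was low at 18.1 CPM against 24.6 to 25.7, a gap of 0.850 of the range. For the muscle markers, replicate 1 was low at a mean log2 CPM of -1.11 against 0.762 to 0.910, a gap of 0.927 of the range.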

How the results depend on the processing

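No paired analysis was made, because the sample labels used here give no litter or pair. The paper describes the controls as littermates, so pups of the 2 genotypes may share a litter, which was not modelled. The count of desmosome genes with an adjusted p under 0.05 was 0 under every alternative run. The count past the thresholds of the study was 0, but 2 with the mesenchyme markers as a covariate (Dsp and Pkp1, both lower), 3 with no limit on the fold change, and 0 to 2 with a library left out. At an unadjusted p of 0.05 or less the count was 3, but 0 with scaling to the epithelium markers and 0 to 5 with a library left out. The median log2 fold change of 0.20 was 0.14 to 0.34 with a library left out, -0.084 with scaling to the epithelium markers and -0.60 with the mesenchyme covariate, which extrapolates because the genotypes do not overlap in those markers. With the epithelium scaling Dsp was -0.20, Jup -0.090, Pkp2 -0.078, Dsg2 -0.26, Dsg3 -0.077, Dsc2 -0.094 and Dsc3 -0.15. With the mesenchyme covariate Dsp was -1.17, Jup -0.80, Pkp1 -0.96, Pkp2 -0.60, Pkp3 -0.28, Dsg2 -0.37, Dsg3 -0.75, Dsc2 -0.014, Dsc3 -0.43 and Perp -0.61. With the Y-linked covariate Dsp was -0.12, Pkp2 -0.015 and Dsg2 -0.069. The causes of these shifts were not tested. With a library left out, Dsp was -0.021 to 0.25, Dsg2 -0.044 to 0.10, Pkp1 0.28 to 0.61, Perp 0.24 to 0.62, Jup 0.029 to 0.36, Pkp2 0.11 to 0.36, Pkp3 0.20 to 0.48, Dsg3 0.13 to 0.36, Dsc3 0.090 to 0.23, the epithelium marker difference 0.16 to 0.38, the Pkp1 over Pkp3 ratio 0.015 to 0.19, the Dsc3 over Dsc2 ratio -0.10 to 0.0100, the Pkp2 over Pkp3 ratio -0.23 to 0.014 and the muscle marker level -0.13 to 0.55. The other normalizations, tests, filters and thinning kept all 10 log2 fold changes above 0, though thinning moved Pkp2 to 0.097 and the Pkp2 over Pkp3 ratio to -0.26. Mean TPM, which was not tested, was lower in K14;Nogo-A than in wild-type for Dsp (184 against 203), Jup, Pkp2, Dsg2 (77.9 against 88.8), Dsg3, Dsc2 and Dsc3. It was higher for Pkp1, Pkp3 and Perp. In TPM the genotypes overlapped for Dsc2. With 4 and 3 pups, differences of the size estimated here cannot be told from 0 for most of these genes, and the low counts of Pkp2 limit it most.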
